A study of Homo sapiens with 6 samples.

Results

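The genes described here, apart from SLC25A38, carry iron into the cell, store it, release it, export it and sense it. SLC25A38 is a carrier linked to import of glycine for heme synthesis. The set is 10 genes chosen by name: TFRC, STEAP3, SLC11A2, SLC25A37, SLC25A38, FTH1, FTL, NCOA4, SLC40A1 and IREB2. Each matched 1 row of the deposited table, among 60623 rows with a gene name. The study sequenced RNA from cells labelled as RPMI-8226, a line derived from human multiple myeloma, taken at 48 h. It has 3 control libraries and 3 from cells given XYA1353, a 2-iminobenzimidazole compound that the study links to NF-kB signalling. No dose or vehicle is named in the labels used here. The labels do not state whether replicates were separate cultures, so p-values reflect the spread among libraries, which may be technical.

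Cells take up iron mainly as transferrin bound to the transferrin receptor, reduce it and move it out of the endosome, and pass it to mitochondria for heme and iron-sulfur clusters or to ferritin for storage. The iron regulatory proteins, IRP1 and IRP2, bind short hairpins called iron-responsive elements when iron is scarce. Binding in the 5′ UTR of ferritin and ferroportin transcripts blocks their translation, and binding in the 3′ UTR of the transferrin receptor transcript protects it from decay. A transcript level can carry the latter effect, on TFRC, but shows nothing of translation. Erythroid cells are known for high iron uptake, since hemoglobin takes most of it.

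The markers of the labelled cell type did not match the label in either group. Of 12 erythroid markers, 12 had a mean of at least 10 TPM (a transcript level per length, scaled to the same total in each library), but HBB, the adult beta globin gene, which was not in that list, averaged 0.62 TPM. The summed level of the 12 ranged from 10174 to 12811 TPM in control libraries and was 6461, 9933 and 17884 TPM in XYA1353 replicates 1, 2 and 3. Of 12 plasma cell markers, 11 had a mean under 1 TPM, and CD38, TNFRSF17, JCHAIN, IGLC2 and IGHA1 were listed at 0 in all 6 libraries. The exception was XBP1, a transcription factor of secretory cells that other cell types also express. Of 7 further markers, HBB among them, 5 averaged under 1 TPM, while EPCAM averaged 53.9 TPM and LYZ 3.07 TPM. The share of TPM in mitochondrially encoded transcripts was 14.6% to 15.1% in control and 9.85% to 11.7% in XYA1353 libraries. These differences between libraries stand beside every result below, and their part in those results was not tested. In bulk RNA, fewer cells of a type and less RNA per cell cannot be told apart.

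Iron-responsive elements found in 4 of the 10 genes are shown because they are the sequences that the iron regulatory proteins are known to bind. GENCODE transcripts (GRCh38) were searched on the sense strand for a C, 5 bases, the loop CAGTGN and 5 bases that pair with the first 5, allowing G with U. Among 19666 protein-coding genes, 0.158% held a match in a 5′ UTR and 0.656% in a 3′ UTR. The 4 genes held matches at 7 places, which need not be all of their elements, since any outside this strict pattern would be missed. For the other genes the search says only that the pattern was not in the transcripts searched. Capitals mark the loop, and each stretch of 29 bases is written 5′ to 3′ as DNA.
FTH1, chr11:61967574-61967602, minus strand, 5′ UTR: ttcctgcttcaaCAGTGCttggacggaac
FTL, chr19:48965335-48965363, plus strand, 5′ UTR: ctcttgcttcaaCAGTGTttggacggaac
SLC40A1, chr2:189580661-189580689, minus strand, 5′ UTR: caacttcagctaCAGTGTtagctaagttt
TFRC, chr3:196050979-196051007, minus strand, 3′ UTR: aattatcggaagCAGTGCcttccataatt
TFRC, chr3:196050575-196050603, minus strand, 3′ UTR: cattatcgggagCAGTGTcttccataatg
TFRC, chr3:196050510-196050538, minus strand, 3′ UTR: ctgtatcggagaCAGTGAtctccatatgt
TFRC, chr3:196050463-196050491, minus strand, 3′ UTR: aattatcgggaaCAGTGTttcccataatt
The stretches of the ferritin genes FTH1 and FTL were the same at 26 of 29 bases, while FTL and SLC40A1 were the same at 14. The loop was CAGTGT at 4 of the 7 places. A match is a description of the letters, not a measurement of binding.

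After XYA1353, FTH1, the ferritin heavy chain gene, stood at 2.21 times its control mean and STEAP3, the endosomal iron reductase gene, at 0.430 times its own, while TFRC stood at 1.00 times. Of the 10 genes, 10 passed the filter for testing, a mean of at least 1 TPM. By limma on log2(TPM + 1) with Benjamini-Hochberg adjustment over all 13392 genes tested, at an adjusted p under 0.05, 3 rose (FTH1, SLC25A37 and NCOA4) and 2 fell (STEAP3 and IREB2). Over all genes tested 31.4% were called, 15.4% upward and 16% downward. The groups did not overlap for 6 of the 10 genes, against 47.6% of all genes tested. The median size of the log2 fold change was 0.45 over the 10 genes and 0.28 over all genes. These calls are from a fit without pairing. Libraries with the same replicate number deviated together weakly, and with that number as a block FTL was also called upward and SLC40A1 downward. Without control replicate 3 the calls of SLC25A37, NCOA4 and IREB2 were lost, leaving 2, and without control replicate 1 those of SLC25A37 and NCOA4, leaving 3. The FTH1 and STEAP3 calls held in each of the 14 alternative fits.

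**Figure D1:**
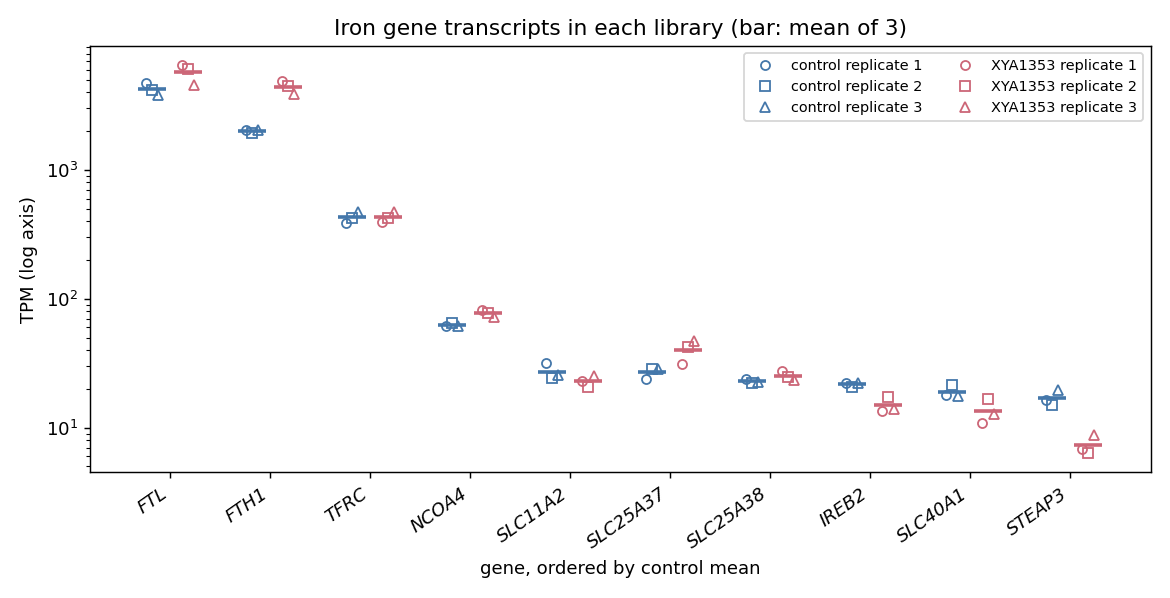
Level of each of the 10 genes in every library, as TPM on a log axis, with control libraries in blue, XYA1353 libraries in red, a symbol for each replicate number and a bar at the mean of 3 libraries. Ferritin transcripts lie highest, TFRC below them at 390 to 476 TPM and the other genes lower still, and the groups part most clearly for FTH1 and STEAP3.

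The levels of the 10 genes spanned a wide range, and TPM, being per length, allows them to be ordered. In control libraries the order of mean levels was FTL, FTH1, TFRC, NCOA4, SLC11A2, SLC25A37, SLC25A38, IREB2, SLC40A1 and STEAP3. From FTL to SLC11A2 no neighbouring genes overlapped in their 3 control values. Below that, SLC11A2 overlapped with SLC25A37, SLC25A37 with SLC25A38, IREB2 with SLC40A1, and SLC40A1 with STEAP3. SLC25A38 and IREB2 were parted by only 22.4 against 22.38 TPM. In XYA1353 libraries FTL and FTH1 overlapped, and SLC25A37 stood above SLC25A38 and SLC11A2 with no overlap.

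Among uptake genes, TFRC, which encodes the transferrin receptor (ENSG00000072274, chromosome 3, 196027183 to 196082189, minus strand), was at the same level in both groups. It stood at 390, 428 and 473 TPM in control replicates 1, 2 and 3 and at 395, 421 and 476 TPM in the XYA1353 replicates of the same numbers. The 3 libraries of a group differed more than the groups did, and replicate 3 was the highest in both. The ratio between libraries of the same number lay between 0.985 and 1.01. The log2 fold change was 0.00 (SE 0.09, limma adjusted p = 0.988), and the 95% confidence interval of the fold was 0.859 to 1.17. With the replicate block the interval of the log2 fold change narrowed from -0.22 to 0.22, to -0.13 to 0.13.

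STEAP3, the ferrireductase that reduces transferrin iron in the endosome (ENSG00000115107, chromosome 2, 119223831 to 119265652, plus strand), fell. It stood at 16.4, 14.9 and 19.7 TPM in control and at 6.86, 6.37 and 8.72 TPM in XYA1353 replicates 1 to 3. Every XYA1353 library lay below every control library, and the ratio within a replicate number was 0.419 to 0.442. On the log2 scale it fell by 1.12 (SE 0.15, limma adjusted p = 0.00251). A larger change in either direction was seen in 4.63% of all genes tested. Without any 1 library the log2 fold change stayed between -1.23 and -1.01.

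SLC11A2, which encodes the iron transporter DMT1 that moves reduced iron out of the endosome (ENSG00000110911, chromosome 12, 50979401 to 51028566, minus strand), was not called. Control replicates stood at 31.6, 24.3 and 25.7 TPM and XYA1353 replicates at 23.2, 20.7 and 25.1 TPM. The groups overlapped, and control replicate 1 was the highest of the 6. On the log2 scale the difference was -0.23 (SE 0.12, limma adjusted p = 0.202), with a 95% interval of the fold from 0.701 to 1.04. The table gives 1 value per gene, so the DMT1 isoforms with and without an iron-responsive element cannot be told apart.

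The carriers that serve mitochondria differed in their values. SLC25A37 encodes mitoferrin 1, which brings iron into mitochondria of erythroid cells (ENSG00000147454, chromosome 8, 23528805 to 23575463, plus strand). It rose, from 23.9, 28.5 and 28.5 TPM in control to 31.2, 42.2 and 47.2 TPM in XYA1353 replicates 1 to 3. The groups did not overlap, and XYA1353 replicate 1 was the lowest of the treated libraries, as it was for the summed erythroid markers. For FTH1 and FTL that library was instead the highest, and whether the marker level bears on any of these genes was not tested. The log2 fold change of SLC25A37 was 0.54 (SE 0.16, limma adjusted p = 0.0354). This call was lost in 8 of 14 alternative fits, with adjusted p from 0.0569 to 0.118, among them every fit without 1 library other than XYA1353 replicate 1. With the replicate block it held, at an adjusted p of 0.0116.

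SLC25A38 is a carrier linked to import of glycine for heme synthesis (ENSG00000144659, chromosome 3, 39383324 to 39397351, plus strand). Its level was 23.9, 22.4 and 22.8 TPM in control and 27.7, 24.6 and 23.4 TPM in XYA1353 replicates. The groups overlapped, through XYA1353 replicate 3. On the log2 scale the difference was 0.12 (SE 0.09, limma adjusted p = 0.341), with a 95% interval of the fold from 0.941 to 1.26. SLC25A28, the gene of mitoferrin 2, averaged 14.9 ± 0.546 TPM without and 14.9 ± 0.711 TPM with the compound (SD, n = 3; limma adjusted p = 0.991). A test of the difference between the mitoferrin genes was not run.

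Storage transcripts were the most abundant of the 10 genes. Ferritin is a hollow shell of heavy chains, which oxidize iron for storage, and light chains, which favour its mineralization. FTH1, the heavy chain gene (ENSG00000167996, chromosome 11, 61959718 to 61967660, minus strand), rose. Its level was 2050, 1930 and 2040 TPM in control replicates 1 to 3 and 4946, 4456 and 3896 TPM in the XYA1353 replicates. All 3 treated libraries lay far above the narrow control range, and XYA1353 replicate 3 was the lowest of them. The log2 fold change was 1.14 (SE 0.09, limma adjusted p = 0.00122), and the 95% interval of the fold was 1.91 to 2.53. A larger change was seen in 4.4% of all genes tested.

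FTL is the light chain gene (ENSG00000087086, chromosome 19, 48965301 to 48966878, plus strand). Its values were 4710, 4144 and 3803 TPM in control and 6489, 6089 and 4583 TPM in XYA1353 replicates. XYA1353 replicate 3 lay below control replicate 1, so the groups overlapped, though each treated library was above the control library of its number, at 1.21 to 1.47 times. Its log2 fold change of 0.43 (SE 0.14) was just short of a call (limma adjusted p = 0.0515). It was called in 6 of 14 alternative fits (adjusted p from 0.00586 to 0.0498): a pseudocount of 0.1, no filter, a filter at 5 TPM, median-of-ratios scaling, the replicate block (adjusted p = 0.013) and without XYA1353 replicate 3 (log2 fold change 0.58, adjusted p = 0.00748).

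The ratio of FTH1 to FTL transcripts was higher in every treated library. It was 0.435, 0.466 and 0.536 in control and 0.762, 0.732 and 0.850 in XYA1353 replicates 1 to 3. The groups did not overlap, and the log2 difference was 0.71 (exact permutation test, two-sided, p = 0.1, the smallest that 3 against 3 libraries allow). This ratio does not depend on scaling each library by a single factor, though quantile normalization, which is not such a factor, can change it. Together the ferritin transcripts took 0.584% to 0.676% of all TPM in control and 0.848% to 1.14% in XYA1353 libraries. The ratio of TFRC to FTH1 was 0.215 ± 0.0218 without and 0.0989 ± 0.0215 with the compound (SD, n = 3), with no overlap (exact permutation test, two-sided, p = 0.1). With the TFRC mean the same in both groups, this difference restates the change of FTH1 and is not a separate result.

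Ferritin genes have many processed pseudogenes, which can take reads from the parent gene. The table held 24 rows named as FTH1 pseudogenes and 16 as FTL pseudogenes, of which 10 and 13 were listed at 0 in every library. FTH1P3 and FTH1P1 were the highest of the former, with means of 0.702 and 0.577 TPM, and FTLP12 and FTLP1 of the latter, with 0.40 and 0.117 TPM. Summed, the pseudogene rows came to at most 0.151% of the FTH1 level and 0.0306% of the FTL level in any library. How the authors' counting treated reads that fit several genes is not given in the sources used here, so the split stays uncertain.

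NCOA4, the receptor that delivers ferritin to lysosomes for breakdown (ENSG00000266412, chromosome 10, 46005088 to 46030714, minus strand), rose by a small amount. It stood at 61.0, 64.7 and 62.0 TPM in control and at 81.5, 77.8 and 72.4 TPM in XYA1353 replicates 1 to 3. The groups did not overlap. On the log2 scale it rose by 0.30 (SE 0.07, limma adjusted p = 0.017), and 47.6% of all genes tested had a larger change. The call was lost without XYA1353 replicate 2, control replicate 1 or control replicate 3 (adjusted p from 0.0578 to 0.0605) and with no filter on low values (adjusted p = 0.107).

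**Figure D2:**
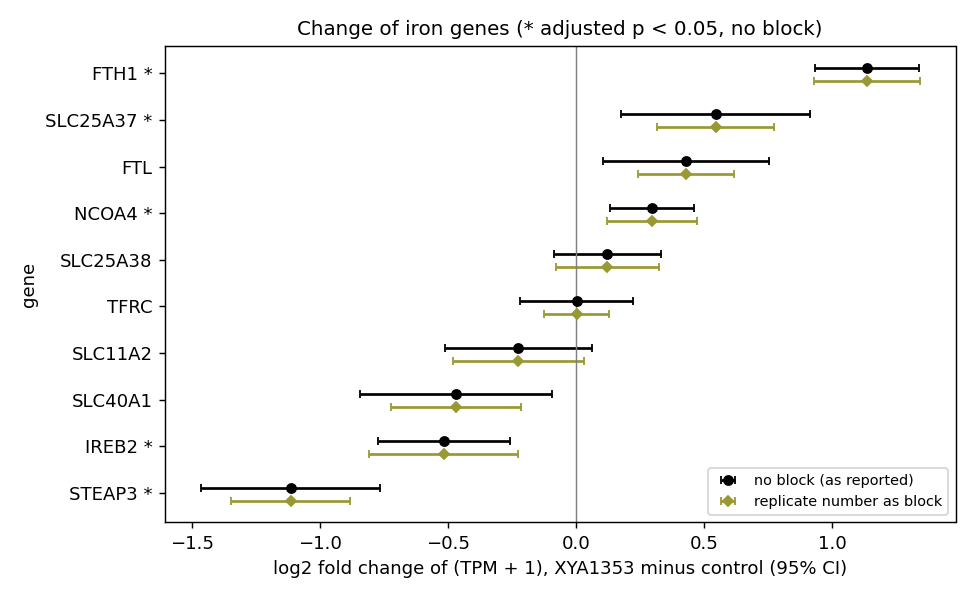
Log2 fold change of (TPM + 1), XYA1353 minus control, for the 10 genes, with 95% confidence intervals from the limma fit without a block (black circles) and with the replicate number as a block (olive diamonds). Asterisks mark the 5 genes called without the block, and the intervals of FTL and SLC40A1 lie on 1 side of 0 in both fits.

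SLC40A1 encodes ferroportin, the only known exporter of iron from cells (ENSG00000138449, chromosome 2, 189560579 to 189583758, minus strand). It stood at 17.8, 21.4 and 17.6 TPM in control and at 10.97, 16.8 and 12.8 TPM in XYA1353 replicates 1 to 3. Every treated library lay below every control library, though the gap between the groups was under 1 TPM. Its log2 fold change of -0.47 (SE 0.16) was not called (limma adjusted p = 0.0609). It was called in 5 of 14 alternative fits (adjusted p from 0.0227 to 0.0472): a filter at 5 TPM, median-of-ratios scaling, rescaling with the mitochondrial, immunoglobulin and rRNA genes left out, the replicate block (adjusted p = 0.0227), and without XYA1353 replicate 2 (adjusted p = 0.0298), the highest of the treated libraries. The 95% interval of the fold was 0.557 to 0.936. The iron-responsive element shown above was found in 1 annotated transcript, SLC40A1-201. With 1 value per gene, the share of that transcript cannot be told.

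IREB2, the gene of the iron sensor IRP2 (ENSG00000136381, chromosome 15, 78437431 to 78501456, plus strand), fell. It stood at 22.1, 20.6 and 22.4 TPM in control and at 13.5, 17.2 and 14.02 TPM in XYA1353 replicates 1 to 3. The groups did not overlap, and XYA1353 replicate 2 was nearest to the controls. The log2 fold change was -0.52 (SE 0.11, limma adjusted p = 0.0118), and the 95% interval of the fold was 0.585 to 0.836. The call was lost without control replicate 3 (adjusted p = 0.0505). ACO1, the gene of the other sensor, IRP1, fell to 0.833 times its control mean (limma adjusted p = 0.047). That call was lost in 9 of 14 alternative fits, the replicate block among them, with adjusted p from 0.0506 to 0.479.

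**Figure D3:**
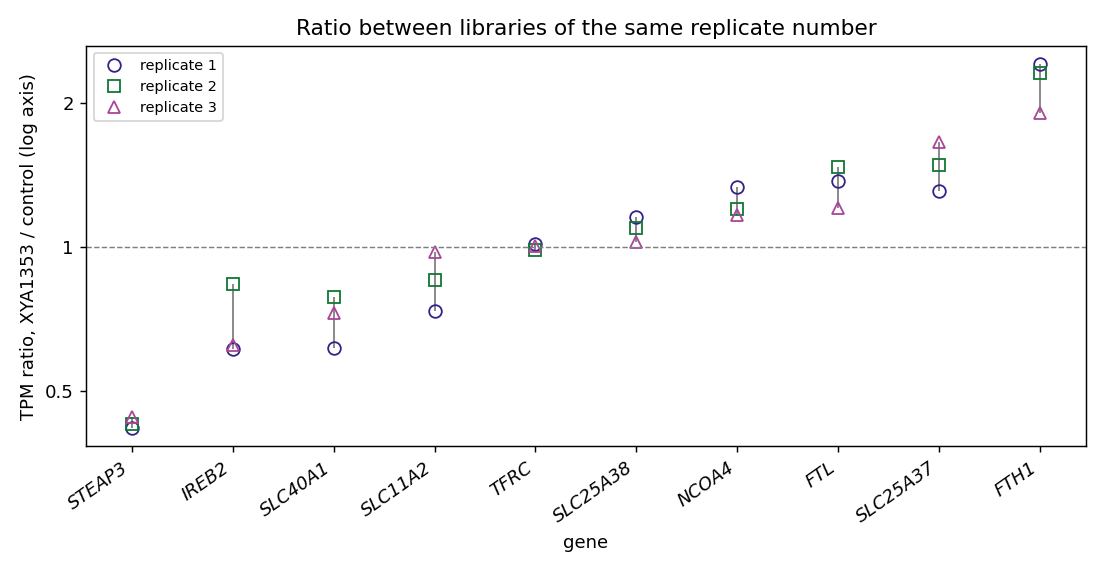
Ratio of TPM in the XYA1353 library to that in the control library of the same replicate number, for each of the 10 genes on a log axis, with a symbol for each number and a dashed line at a ratio of 1. The ratios of TFRC lie between 0.985 and 1.01 and those of STEAP3 between 0.419 and 0.442, while those of SLC25A37 spread from 1.31 to 1.66.

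The other genes of iron metabolism, in 6 lists, were called about as often as all genes. Of 68 genes listed, 53 were tested, and 7 rose, 8 fell and 38 were not called, or 28.3% called against 31.4% over all genes. Their median log2 fold change was -0.05, beside 0.02 over all genes. Without control replicate 1 or control replicate 3, 9 were called, where 21.2% of all genes were called in either fit. With no filter on low values 9 were also called, where 5.75% of all rows fitted were. The split moved with the scaling, to 5 higher and 16 lower when libraries were rescaled without mitochondrial, immunoglobulin and ribosomal RNA genes, to 5 and 11 under median-of-ratios scaling and to 11 and 8 under quantile normalization.

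Of 7 tested sensing genes other than IREB2, 2 rose, 3 fell and 2 were not called. That is 71.4% called, against 31.4% of all genes (15.4% upward and 16% downward). The list is small and counts the ligase subunits SKP1, CUL1 and RBX1 beside the sensors. EPAS1, which encodes the hypoxia factor HIF-2 alpha, rose from 6.52, 7.67 and 6.08 TPM to 31.9, 30.2 and 18.5 TPM (log2 fold change 1.81, SE 0.21, limma adjusted p = 0.00167). FBXL5, the iron-sensing ubiquitin ligase subunit that targets IRP2 for degradation, rose to 1.31 times its control mean (adjusted p = 0.0436). CUL1 and SKP1, which form the ligase with FBXL5 and RBX1, fell by 0.49 and 0.32 on the log2 scale (adjusted p = 0.00387 and 0.00548). RBX1, picked with its result already known, was not called (log2 fold change -0.08, limma adjusted p = 0.471), and its groups overlapped. FBXL5 and SKP1 were named after their values were seen, and the FBXL5 call was lost in 10 of 14 alternative fits, with adjusted p from 0.0557 to 0.134.

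Of 10 tested genes of uptake and the endosome, 1 rose and 0 fell, or 10% called against 31.4% of all genes, while at an unadjusted p under 0.05 limma gave 2 higher and 1 lower. The gene that rose was TF, which encodes transferrin itself, at 1.33, 1.94 and 0.66 TPM in control and 5.48, 5.60 and 6.04 TPM in XYA1353 libraries (log2 fold change 1.58, SE 0.22, limma adjusted p = 0.00296). TF was at a low level, so this scale understates its change. Of 5 tested genes of storage, iron chaperones and ferritin turnover, 0 rose and 1 fell, or 20% called, while at an unadjusted p under 0.05 limma gave 1 higher and 2 lower. PCBP1, a chaperone that delivers iron to ferritin, fell by 0.23 on the log2 scale (limma adjusted p = 0.0178), a call lost without control replicate 2 or 3 (the highest adjusted p among these fits was 0.0654) and under quantile normalization or without a variance trend. Of export and systemic genes 2 were tested, and HEPH, a ferroxidase that works with ferroportin, rose to 1.37 times its control mean (limma adjusted p = 0.0255). Leaving out any single library but XYA1353 replicate 3 ended the HEPH call (adjusted p from 0.0681 to 0.0933).

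Of 20 tested genes of mitochondrial iron and cluster assembly 2 rose, 2 fell and 16 were not called, so 20% were called, against 31.4% of all genes. ISCU, the scaffold on which clusters are built, rose to 1.45 times its control mean (limma adjusted p = 0.00924). CISD1, an outer membrane iron-sulfur protein, fell to 0.645 times (adjusted p = 0.00703). NFS1, the enzyme that supplies the sulfur, fell by 0.50 on the log2 scale (adjusted p = 0.013), and ISCA2, a late assembly factor, rose by 0.41 (adjusted p = 0.0452); these genes were picked after their values were seen. The ISCA2 call was lost in 10 of 14 alternative fits (adjusted p from 0.0571 to 0.141). Of 9 tested cytosolic assembly genes 33.3% were called, near the share over all genes: 1 rose (CIAO3, adjusted p = 0.0311), 2 fell (CIAO1, adjusted p = 0.00811, and CIAPIN1, adjusted p = 0.0227, the latter named after its values were seen) and 6 were not called. The CIAO3 call was lost in 6 of 14 alternative fits (adjusted p from 0.0501 to 0.109) and that of CIAPIN1 in 7 (0.0517 to 0.147), while that of CIAO1 was lost with no filter on low values (adjusted p = 0.0548).

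**Figure D4:**
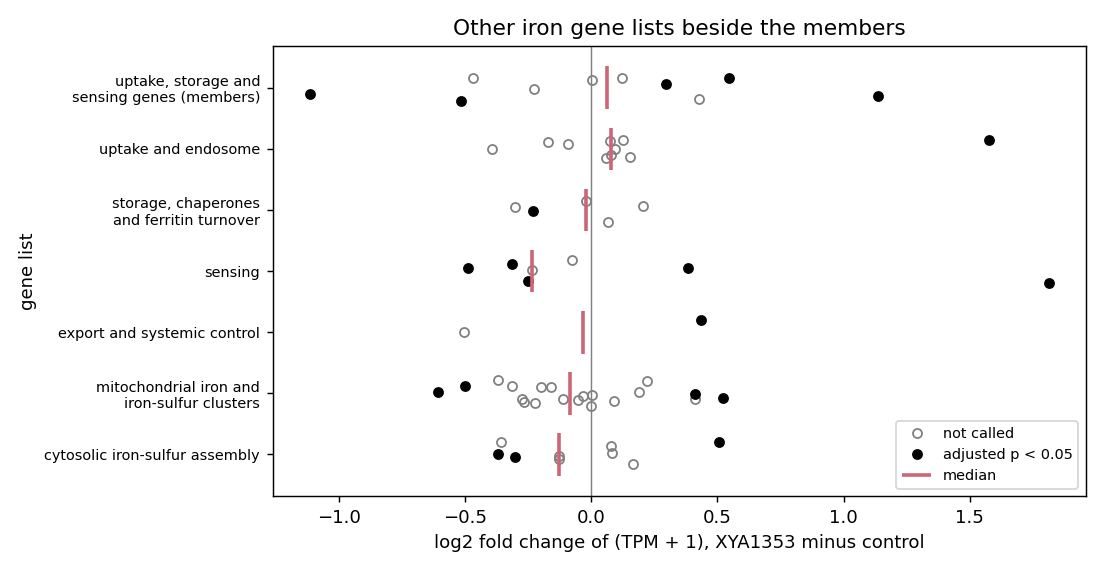
Log2 fold change of (TPM + 1), XYA1353 minus control, for every tested gene of the 10 described and of the 6 other iron lists, with filled points for an adjusted p under 0.05 and a red bar at each list's median. The 10 genes reach from -1.12 to 1.14, EPAS1 at 1.81 and TF at 1.58 lie farthest to the right, and the list medians reach from -0.23 for sensing genes to 0.08 for uptake and endosome genes.

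The genes most like TFRC and FTH1 were sought by the root mean square difference of log2(TPM + 1), centred on the control mean, over the 6 libraries. For TFRC these were MRPL20-AS1, CDC34 and CEP72, with differences of 0.021, 0.029 and 0.036 against a median of 0.29 over all genes. For FTH1 they were HSF4, PTPRF and DNAJC4, with differences of 0.038, 0.052 and 0.064 against a median of 0.82. These genes are the closest of all tested over 6 libraries, so their small differences follow from the search itself. Shared regulation was not tested.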

How the data were processed

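The deposited values are TPM per gene, computed by the authors in a single table with 1 column per library. The 2 columns of group means were not used. The submitters' processing notes name a mouse build, GRCm38 (mm10), but 0 identifiers in the table are from mouse, so that build was not used. For the aligner, counter and annotation, nothing is given in the sources used here. Coordinates are GENCODE's on GRCh38, matched by Ensembl identifier. TPM keeps no record of depth, so depth is unknown and no counting interval can be given.

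Named genes with a mean of at least 1 TPM were fitted as log2(TPM + 1) with limma 3.58.1 (eBayes with a trend) in R 4.3.3. This scale understates changes of low genes. The code was checked for recovering set mean changes in simulated data with independent noise. That simulation held no replicate or composition effect, so it cannot give the rate of false calls here. Libraries with the same replicate number deviated together weakly (correlations across genes of 0.111, 0.114 and 0.133). A block by replicate number was therefore tried as an alternative. For unlike numbers the correlations were -0.116 to -0.00187. Values were centred on each group's mean, so positive correlations for like numbers force those for unlike numbers to be negative on average. The unlike numbers are therefore no separate contrast. The main fit and both ratio tests took the libraries as unpaired. Other alternatives were a pseudocount of 0.1, other filters and scalings, no trend, and leaving out each library. In each related list, the 2 called genes that changed most and averaged 5 TPM or more were named. TF, called with a lower mean, was taken where a list had none. The genes and lists were chosen with earlier results of these data known. Some genes may not be reported here.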

Additional observations from a re-analysis of the deposited data

How the results depend on the processing

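With the replicate block 4286 genes and 7 of the 10 iron genes were called, against 4210 and 5 without it, and FTL and SLC40A1 were the iron genes gained. In the related lists ACO1 and FBXL5 lost their calls under the block and SLC39A14 gained one (adjusted p = 0.0259). Leaving out each library in turn gave 2608 to 4460 called genes, the lowest without XYA1353 replicate 2, and 2 to 5 called iron genes, the lowest without control replicate 3. Of the genes in the 6 related lists, 15 were called, 9 with no filter on low values, and 9 to 17 without 1 library. The log2 difference of the FTH1 to FTL ratio ranged from 0.64 to 0.79 and that of the TFRC to FTH1 ratio from -1.30 to -0.99 without 1 library, and adding pseudogene rows gave 0.71 and -1.13. Where a fit with fewer libraries loses a call, fewer samples lower the power, and no other cause was tested. The 9 genes other than TFRC kept the direction of their change in each of the 14 alternative fits. Scaling moved the median of all genes by at most 0.07 on the log2 scale. Under quantile normalization some of the 10 genes moved further, FTH1 from 1.14 to 0.96 and FTL from 0.43 to 0.27. TFRC moved from 0.00 to 0.11, NCOA4 from 0.30 to 0.39 and STEAP3 from -1.12 to -1.21, and the remaining genes moved less. Depth, unknown here, limits the precision of the genes near 10 TPM in a way that cannot be given.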
